A study of Mus musculus with 6 samples.

Results

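Imprinted genes are genes of which mainly a single parental copy is transcribed. 35 of them, chosen as well-known members of mouse imprinted clusters, were looked up by symbol among the 23284 genes of the deposited RNA-seq table, and all 35 had a row. The libraries came from heart ventricles of E9.5 embryos, 3 of the WT group and 3 of the KD group. The labels give the strain as C57BL/6, and the study's methods name C57BL/6 J as the source of the ES cells. In KD embryos both copies of Tbx5ua, a long noncoding RNA gene, are truncated: a cassette of 3 poly(A) signals from the bovine growth hormone gene, placed in exon 2, ends the transcript there. The labels write this genotype as Tbx5ua -/-. All embryos of both groups were made by tetraploid complementation, in which ES cells are placed with tetraploid host embryos. The embryo then comes from the ES cells while host cells can form extraembryonic tissue. ES cells of the KD group had passed through Cas9 editing and clonal selection, and the sources used here do not say which ES cell line each sequenced embryo came from. The genotype and the history of the ES cell lines therefore cannot be told apart.

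The table gives a single FPKM value per gene for each group (fragments mapped to a gene relative to transcript length and to all mapped fragments, a level that is scaled by transcript length and can be compared between genes). It holds no values of single embryos, so no SD, interval or test could be computed, and every difference below is a difference between 2 group values. The depth of the libraries is unknown. Differences are given as log2((KD FPKM + 1) / (WT FPKM + 1)), positive when KD was higher, and a gene was counted as past 1.5-fold only when it reached 1 FPKM in either group. This scale understates the change of genes with low values. The strain is inbred, so the parental allele of a read could not be read off, and the allele named for each gene is what is known of it in mouse. Marker genes matched the labelled tissue. All 10 ventricular cardiomyocyte markers were above 1 FPKM, led by Myl2, the ventricular myosin light chain, at 10924 FPKM in WT and 12702 in KD.

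Imprinted genes lie in clusters that share a control region, methylated on a single parental chromosome in egg or sperm. Within many clusters a long noncoding RNA is transcribed from the parental chromosome on which the neighbouring protein-coding genes are silent. Many members act on fetal and placental growth, and paternally and maternally expressed members often have opposing effects. The methylation marks are kept through cell division after fertilization, and in cultured ES cells some clusters, Dlk1-Dio3 among them, are known to lose their normal pattern.

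The largest differences among the members lay in the Dlk1-Dio3 cluster on chromosome 12. Meg3, the maternally expressed long noncoding RNA of the cluster (chromosome 12, 109541001 to 109571726, plus strand, in the GENCODE annotation of build GRCm38, as for all gene positions here), had 13.8 FPKM in WT and 0.00543 in KD, a log2 difference of -3.88. Rian, the maternally expressed host of small nucleolar RNAs and microRNAs downstream of it (109603940 to 109661716, plus strand), had 2.77 FPKM in WT and 0.00640 in KD, a log2 difference of -1.91. The KD group was near 0 for both RNAs while WT was above 1 FPKM. In bulk samples, fewer cells that express a gene and less RNA per cell cannot be told apart. If a group value is the mean of 3 embryos, the KD values leave no KD embryo above 0.0163 FPKM for Meg3 or 0.0192 FPKM for Rian. The WT value of Meg3 carries no such bound, since a mean of 13.8 FPKM could come from 3 similar embryos or from a single embryo at 41.3 FPKM. Mirg, the microRNA host at the far end of the maternally expressed run (109729764 to 109749460, plus strand), stayed under 1 FPKM, with 0.543 FPKM in WT and 0.181 in KD.

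The sequences around the starts of these transcripts are shown because Meg3 and Rian were near 0 in KD while Dlk1, their paternally expressed neighbour, was not. Mirg, the next host in the run, is shown with them although its level was below the filter. They are RefSeq promoters of build GRCm38.p6, from 250 bases before to 50 bases after the start, all on the plus strand, 5′ to 3′, with CG dinucleotides in capitals. The positions are chr12:109540746-109541045 for Meg3 (the upstream of its 2 listed starts), chr12:109603695-109603994 for Rian, chr12:109734731-109735030 for Mirg and chr12:109452573-109452872 for Dlk1. The RefSeq start of Mirg lies downstream of the GENCODE start given above, so its window falls inside the GENCODE gene.
Meg3: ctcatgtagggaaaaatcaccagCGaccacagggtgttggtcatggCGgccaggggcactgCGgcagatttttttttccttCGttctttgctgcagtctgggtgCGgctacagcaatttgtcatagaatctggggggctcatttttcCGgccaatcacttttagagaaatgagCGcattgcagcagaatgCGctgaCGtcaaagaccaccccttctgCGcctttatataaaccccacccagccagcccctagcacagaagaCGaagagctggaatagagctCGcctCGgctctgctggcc
Rian: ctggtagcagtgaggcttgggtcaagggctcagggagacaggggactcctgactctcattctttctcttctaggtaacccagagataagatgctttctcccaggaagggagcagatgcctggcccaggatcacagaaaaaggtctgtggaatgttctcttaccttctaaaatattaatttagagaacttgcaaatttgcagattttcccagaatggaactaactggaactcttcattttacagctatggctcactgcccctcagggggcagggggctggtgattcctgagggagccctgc
Mirg: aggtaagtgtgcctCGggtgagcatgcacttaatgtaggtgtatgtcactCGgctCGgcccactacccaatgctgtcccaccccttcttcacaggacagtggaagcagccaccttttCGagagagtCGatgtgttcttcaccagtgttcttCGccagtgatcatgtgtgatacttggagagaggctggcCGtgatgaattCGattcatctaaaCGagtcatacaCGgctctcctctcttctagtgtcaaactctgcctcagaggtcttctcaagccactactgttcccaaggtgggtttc
Dlk1: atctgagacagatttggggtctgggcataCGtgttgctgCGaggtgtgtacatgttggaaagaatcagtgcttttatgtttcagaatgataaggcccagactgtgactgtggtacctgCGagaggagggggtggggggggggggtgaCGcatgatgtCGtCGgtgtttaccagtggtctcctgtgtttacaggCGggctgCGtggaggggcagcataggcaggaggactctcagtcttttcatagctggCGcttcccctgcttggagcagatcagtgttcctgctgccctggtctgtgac

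The upstream Meg3 window holds 13 CG dinucleotides, that of Mirg 10, that of Dlk1 9 and that of Rian 0. The window of the downstream Meg3 start, not printed, holds 1 and neither of the motifs searched. The median over all 32851 promoters of the table was 7. Over the 42 promoters listed for 28 of the members it was 12.5. Promoters of H19, Rtl1, Peg10, Sgce, Cdkn1c, Impact and Peg13 were not used here. A pair of short motifs was searched on both strands. TGCCGC is the hexamer bound, when methylated, by ZFP57, which keeps imprints after fertilization, and it was found in 11 of the 42 member promoters (26.2%), belonging to 10 genes, and in 11.6% of all promoters. The member windows are not independent, since several starts of the same gene overlap. TGACGTCA, the cyclic AMP response element, which is its own reverse complement, was found in 3 of the 42 (7.14%) and in 1.79% of all promoters. The upstream Meg3 window holds 1 match to each motif, and its response element begins 57 bases before the start. The other 2 matches are a single site, counted in the windows of both Peg3 and Usp29, which overlap on opposite strands. The share of 7.14% therefore counts that site more than once. Both motifs contain a CG, and the member windows held more CG dinucleotides (median 12.5 against 7). The shares were not compared at like CG content, so they show no enrichment beyond it. A match is only a run of letters, and the data hold no measure of binding or methylation.

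The protein-coding genes of the cluster are expressed from the paternal chromosome. Dlk1, a transmembrane protein related to Notch ligands (109452823 to 109463336, plus strand), had 3.89 FPKM in WT and 5.89 in KD, a log2 difference of 0.50, short of 1.5-fold on this scale. Rtl1, a retrotransposon-derived protein gene needed in the placenta, had 0.191 FPKM in WT and was listed at 0 in KD. Its minus-strand locus lies between Meg3 and Rian, and maternally expressed transcripts run antisense through it. Smart-Seq2 libraries do not keep the strand, so reads of Rtl1 and of antisense RNA cannot be separated. Dio3, the deiodinase that inactivates thyroid hormone, was listed at 0 in WT and had 0.0241 FPKM in KD. Dlk1 was the only protein-coding member of the cluster above 1 FPKM.

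The table lists 74 genes from the start of Dlk1 to the end of Dio3, a stretch of 828 kb. Of these, 62 are microRNA or small nucleolar RNA genes, 60 of them listed at 0 in both groups. The other 2 are Mir1188, which lies within Rian, with 3.66 FPKM in WT and 0 in KD, and Mir410, which lies within Mirg, with 6.56 FPKM in WT and 0 in KD. Their direction is that of their hosts. Yet such short genes were erratic across the whole table. Of 129 microRNA and small nucleolar RNA genes at 1 FPKM or more, 97 (75.2%) were past 1.5-fold and 58 were at 0 in a single group. An example is Mir675, which lies within H19 and was listed at 23.2 FPKM in WT and 0 in KD while H19 itself barely differed. Their FPKM values come from the poly(A)-primed libraries and do not measure mature microRNAs. The mature forms of these 3 microRNAs (RefSeq, GRCm38.p6) are given to identify them, with the seed, bases 2 to 8, in capitals, and their 6 seeds all differ.
mmu-miR-1188-5p: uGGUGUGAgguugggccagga
mmu-miR-1188-3p: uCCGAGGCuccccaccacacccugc
mmu-miR-410-5p: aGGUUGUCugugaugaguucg
mmu-miR-410-3p: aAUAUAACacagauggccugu
mmu-miR-675-5p: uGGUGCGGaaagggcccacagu
mmu-miR-675-3p: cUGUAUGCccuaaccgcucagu

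**Figure D1:**
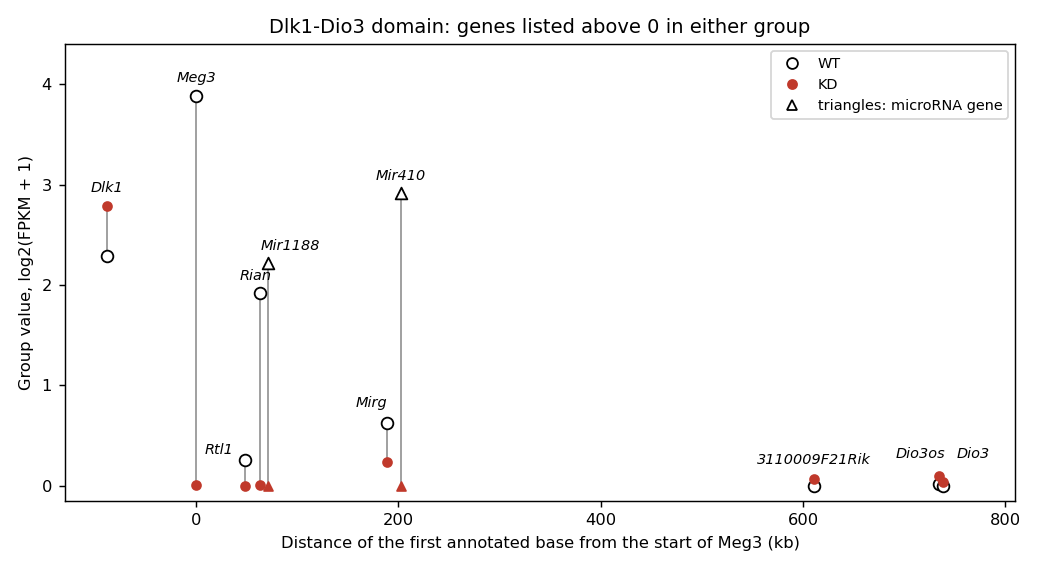
Group values of the genes of the Dlk1-Dio3 domain listed above 0 in either group, as log2(FPKM + 1), against the distance in kb of the lowest annotated position of each gene from the start of Meg3. Open symbols are WT, red symbols are KD and triangles are microRNA genes. Meg3 and Rian drop to the baseline in KD while Dlk1 is higher. 6430411K18Rik, at 0.105 FPKM in WT and 0.0698 in KD, had no match in the annotation and is not drawn.

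The genes next to the domain stayed within 1.5-fold. With 3.66% of all genes past it in either direction, a list of 6 genes within it is not set apart. The nearest 3 genes at 1 FPKM or more on the Dlk1 side were Slc25a47 with 1.33 and 1.06 FPKM in WT and KD, Wars with 53.7 and 56.0 FPKM, and Wdr25 with 2.42 and 1.72 FPKM. On the Dio3 side Ppp2r5c had 45.02 and 50.9 FPKM, Dync1h1 had 5.49 and 5.15 FPKM, and Hsp90aa1 had 771 and 597 FPKM. The log2 differences of these 6 genes ran from -0.37 to 0.17.

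Genes with a near-complete loss were counted over the whole table. The cut was chosen after the values of Meg3 and Rian had been seen, so the count is a description and not support for a difference. At least 1 FPKM in WT was reached by 11152 genes other than microRNA and small nucleolar RNA genes. Of them, 3 were under 0.05 FPKM in KD. These were Meg3, Rian and the joint entry Rnaset2a,Rnaset2b, which went from 2.74 to 0.00171 FPKM and belongs to a family of near-identical copies. In the opposite direction a single gene, Gm5512, went from 0.00470 to 1.19 FPKM. The log2 difference of Meg3 was the lowest of the 11477 such genes at 1 FPKM or more in either group, and that of Rian ranked 4. With the short RNA genes included, Meg3 ranked 27.

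**Figure D2:**
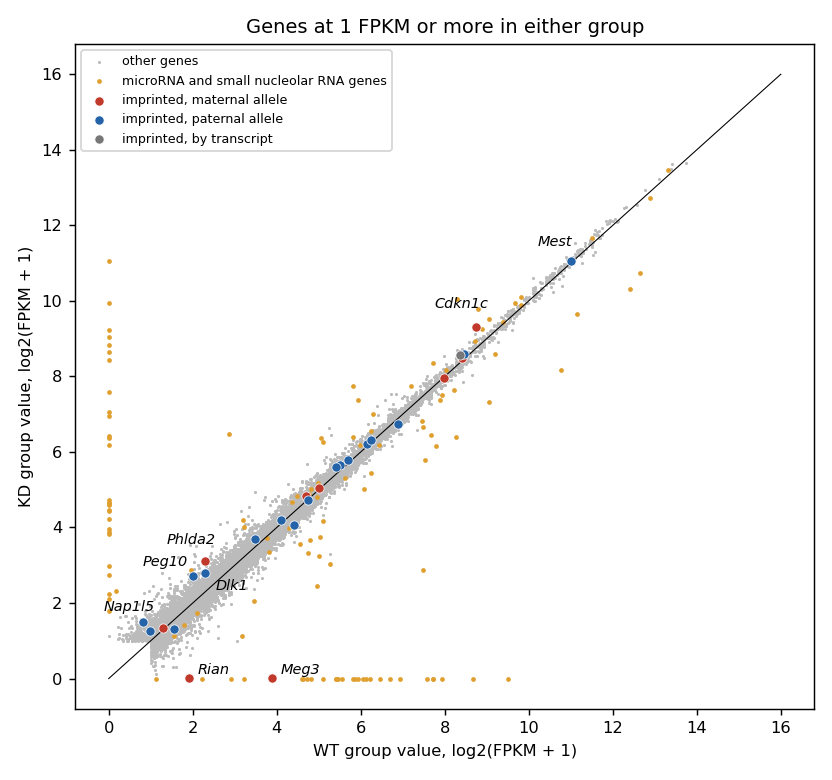
Group values of the 11606 genes at 1 FPKM or more in either group, WT on the x axis and KD on the y axis, both as log2(FPKM + 1). Grey points are other genes, orange points are microRNA and small nucleolar RNA genes, red and blue points are maternally and paternally expressed imprinted genes, and the line marks equal values. Most imprinted genes lie on the line, and Meg3 and Rian lie on the baseline among orange points.

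Across the whole list, 27 of the 35 members reached 1 FPKM in either group, and 5 of these were past 1.5-fold (18.5%), against 3.66% of the 11606 genes kept. Phlda2, Peg10 and Nap1l5 were higher in KD, a direction taken by 2.20% of all genes, and Meg3 and Rian were lower, a direction taken by 1.46%. The other 22 members had log2 differences from -0.35 to 0.56. The median over the 27 members was 0.08, and over all genes kept it was 0.00426. Of the 5, only Meg3 exceeded 10 FPKM in either group. Meg3, Rian and Nap1l5 passed the filter only through the group in which they were higher, so the share of 18.5% is a description and not support for a difference.

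**Figure D3:**
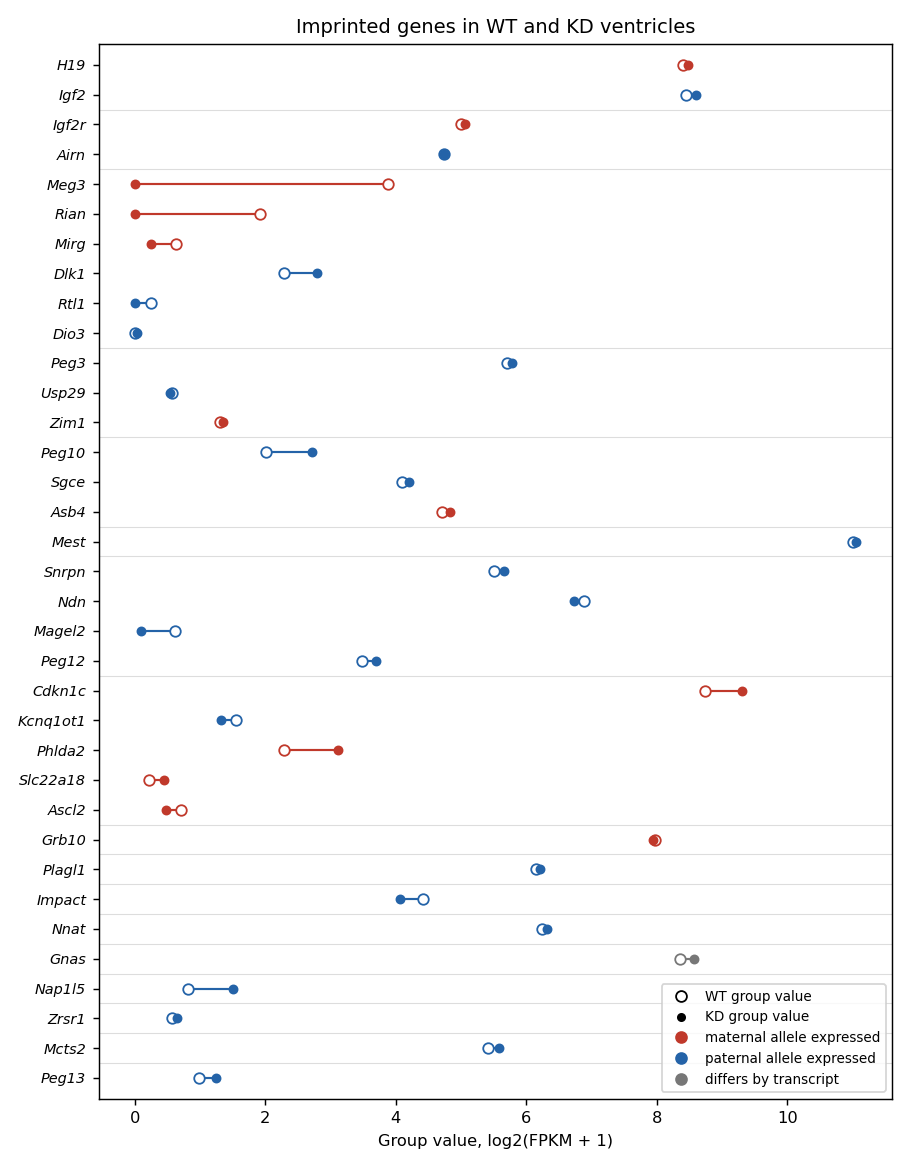
Group values of all 35 imprinted genes as log2(FPKM + 1), ordered by cluster, with grey lines between clusters. Open circles are WT, filled circles are KD, and the colour gives the allele known to be expressed. In most genes the circles nearly coincide, and the longest lines are those of Meg3 and Rian.

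The H19-Igf2 cluster on chromosome 7 showed little difference. H19, the maternally expressed long noncoding RNA (142575529 to 142578143, minus strand), had 338 FPKM in WT and 357 in KD, a log2 difference of 0.08. Igf2, the paternally expressed fetal growth factor (142650766 to 142666816, minus strand), had 348 FPKM in WT and 388 in KD, a log2 difference of 0.16. Both genes were abundant and of similar level per length in either group. The table also lists Igf2as, an antisense gene, across the Igf2 locus.

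Igf2r, the maternally expressed receptor that clears IGF2 from the cell surface, had 31.0 FPKM in WT and 32.3 in KD, a log2 difference of 0.05. Airn, the paternally expressed RNA antisense to it, had 25.6 FPKM in WT and 25.7 in KD, a log2 difference of 0.01. Igf2r and Airn share a locus on opposite strands of chromosome 17, so their reads cannot be fully separated. Grb10, a maternally expressed adaptor that damps insulin and IGF receptor signalling, had 250.0 FPKM in WT and 246 in KD, a log2 difference of -0.02.

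In the Kcnq1ot1 cluster on chromosome 7, 1 of the 3 members above the filter, Phlda2, was past 1.5-fold (2.20% of all genes were past it in this direction). Cdkn1c, a cyclin-dependent kinase inhibitor that slows cell division (143458339 to 143461050, minus strand), had 428 FPKM in WT and 633 in KD, a log2 difference of 0.56 that fell just short of 1.5-fold. Its difference of 205 FPKM was the largest of the members in absolute terms. Phlda2, a pleckstrin homology protein known to restrain placental growth (143501545 to 143503150, minus strand), had 3.87 FPKM in WT and 7.68 in KD. Its log2 difference of 0.83 was the highest of the members on this scale. With a pseudocount of 0.1, Nap1l5 was higher, at 1.16 against 0.97. Kcnq1ot1, the paternally expressed RNA whose transcription accompanies silencing of this cluster on the paternal chromosome, had 1.93 FPKM in WT and 1.49 in KD, a log2 difference of -0.24. It lies antisense within Kcnq1, which had 1.29 FPKM in WT and 2.21 in KD, so its value is uncertain. Slc22a18, a transporter, and Ascl2, a transcription factor of the placenta, were under 1 FPKM in both groups.

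Peg10, a paternally expressed retrotransposon-derived gene needed for the placenta (chromosome 6, 4747306 to 4760517, plus strand), had 3.03 FPKM in WT and 5.59 in KD, a log2 difference of 0.71. Its cluster partners did not pass 1.5-fold. Sgce, epsilon-sarcoglycan, which starts beside Peg10 on the opposite strand, had 16.1 FPKM in WT and 17.4 in KD, a log2 difference of 0.11. Asb4, a maternally expressed ankyrin repeat protein, had 25.1 FPKM in WT and 27.5 in KD, a log2 difference of 0.12. Nap1l5, a paternally expressed nucleosome assembly family gene that lies within Herc3 (chromosome 6, 58905233 to 58907076, minus strand), had 0.763 FPKM in WT and 1.83 in KD, a log2 difference of 0.68. It passed the filter only through the KD group, and reads of Herc3 may be counted in it.

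Epicardial markers were also higher in the KD ventricles. 6 of the 7 epicardial markers reached 1 FPKM in either group, Aldh1a2 only in KD, and 4 of these, Tcf21, Tbx18, Upk3b and Upk1b, were past 1.5-fold higher in KD, against 2.20% of all genes, and 0 were lower. The summed level of the 7 was 47.3 FPKM in WT and 96.8 in KD, and none was at 0. Their part in the higher values of Phlda2, Peg10, Cdkn1c and Dlk1 was not tested. In the other lists, 0 of 10 ventricular cardiomyocyte, 0 of 7 endocardial and 0 of 6 erythroid markers were past 1.5-fold, with medians of 0.10, 0.04 and 0.04. With 3.66% of all genes past it in either direction, a count of 0 in lists this short does not set them apart. The 6 hepatic and yolk sac markers stayed under 1 FPKM, with Alb and Fgb at 0 in both groups, and of 8 placental markers only Plac1 reached 1 FPKM, with 11.0 FPKM in WT and 12.9 in KD, while Tpbpa, Cdx2 and Syna were at 0 in both groups. Of 6 neural markers 2 reached 1 FPKM, Tubb3 and Stmn2, and Sox2 and Neurod1 were at 0. Tubb3, with 12.2 FPKM in WT and 26.9 in KD, was past 1.5-fold higher in KD, against 2.20% of all genes. Its part in the higher values of the members was not tested. Stmn2 had 1.77 FPKM in WT and 0.904 in KD. Of 6 pluripotency markers 2 reached 1 FPKM, Tdgf1 with 2.19 FPKM in WT and 0.720 in KD and Nanog with 1.60 and 1.41 FPKM. The other pluripotency markers were under 1 FPKM in both groups, too low to compare. The summed level of the 6 was 4.80 FPKM in WT and 2.82 in KD, a difference carried mostly by Tdgf1. Tdgf1 was the only marker past 1.5-fold in the direction of Meg3, a direction taken by 1.46% of all genes. The part of the pluripotency list in the Meg3 result was not tested.

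**Figure D4:**
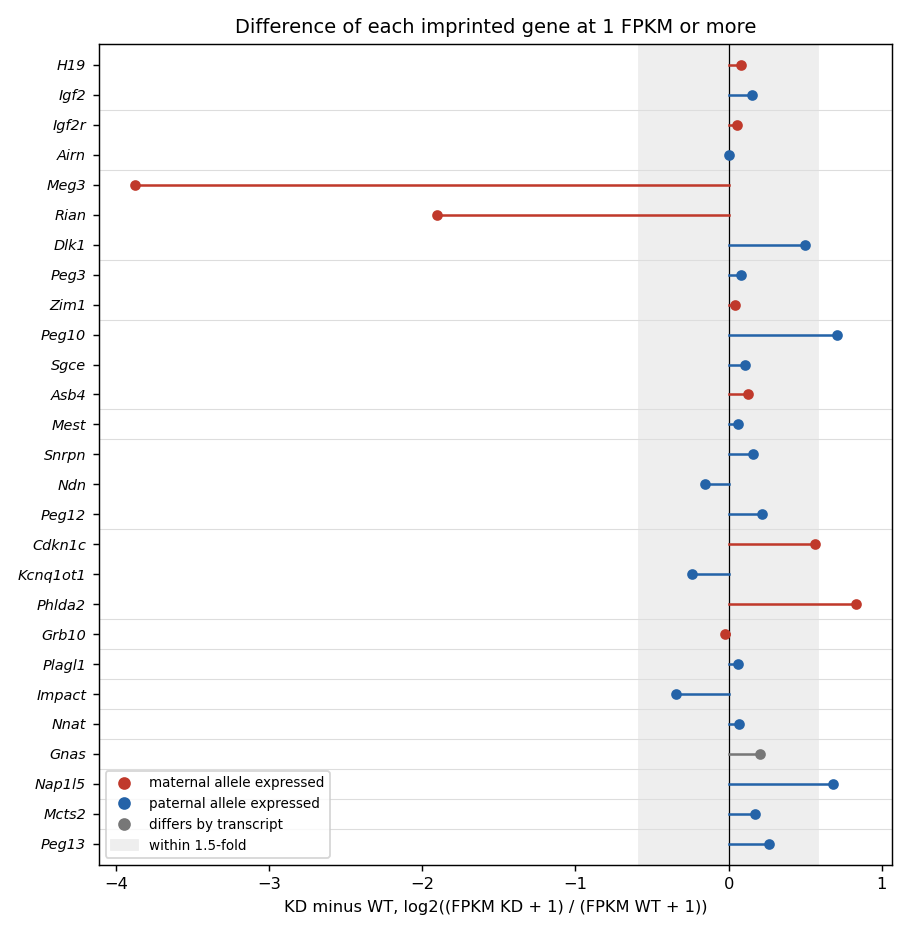
Difference between KD and WT of the 27 imprinted genes at 1 FPKM or more in either group, as log2((FPKM KD + 1) / (FPKM WT + 1)), ordered by cluster and coloured by the allele known to be expressed. The grey band marks 1.5-fold. Meg3 and Rian lie far to the left of it, Phlda2, Peg10 and Nap1l5 to the right, and Cdkn1c at its edge.

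The other members with measurable levels stayed within 1.5-fold. Mest, a paternally expressed hydrolase family gene abundant in embryonic mesoderm, had the highest level of the members, 2052 FPKM in WT and 2136 in KD, and ranked 75 and 77 among all genes of the table. Its log2 difference was 0.06. In the Peg3 cluster, Peg3, a paternally expressed zinc finger gene, had 51.1 FPKM in WT and 54.0 in KD, and Zim1, a maternally expressed zinc finger gene, had 1.47 FPKM in WT and 1.54 in KD. Neither differed by more than 0.08 on the log2 scale. Peg3as, another expressed gene, overlaps the Peg3 locus, so reads of Peg3 and Peg3as may be shared.

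In the Snrpn cluster, the counterpart of the Prader-Willi region, the 3 genes above 1 FPKM are paternally expressed. Snrpn, a spliceosome protein gene that overlaps Snurf, had 44.4 FPKM in WT and 49.6 in KD, a log2 difference of 0.16. Reads of Snrpn and Snurf may be shared. Ndn, the MAGE family protein necdin, had 118 FPKM in WT and 106 in KD, a log2 difference of -0.15. Peg12, a FRAT family gene, had 10.2 FPKM in WT and 12.0 in KD, a log2 difference of 0.22. Magel2, the neighbour of Ndn, had 0.539 FPKM in WT and 0.0697 in KD, below the filter.

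Of the clusters with a single member here, Nap1l5 was past 1.5-fold, as given above, and the others above the filter were within it. Plagl1, a zinc finger transcription factor, had 69.9 FPKM in WT and 73.0 in KD, a log2 difference of 0.06. Nnat, the membrane protein neuronatin, which lies within Blcap, had 75.1 FPKM in WT and 78.6 in KD, a log2 difference of 0.07. Gnas, the stimulatory G protein alpha subunit with transcripts of differing imprint, had 328 FPKM in WT and 379 in KD, a log2 difference of 0.21. Because its transcripts are summed in the table, a shift between them would not show. Mcts2, a retrogene copy of Mcts1 within H13, had 41.7 FPKM in WT and 47.2 in KD, a log2 difference of 0.17, and reads of these genes may be shared. Peg13, a noncoding RNA within Trappc9, had 0.980 FPKM in WT and 1.37 in KD, a log2 difference of 0.26. Impact, a regulator of the kinase GCN2, had 20.3 FPKM in WT and 15.8 in KD, a log2 difference of -0.35. On this scale it was the lowest outside the Dlk1-Dio3 cluster among members above the filter. With no pseudocount Kcnq1ot1 was lower, at -0.378 against -0.366.

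The 8 members under 1 FPKM in both groups were Mirg, Rtl1, Dio3, Usp29, Magel2, Slc22a18, Ascl2 and Zrsr1. Their values ran from 0 to 0.636 FPKM and were too low to compare with any precision. Of the values not yet given, Usp29 had 0.483 FPKM in WT and 0.458 in KD, and Zrsr1, a retrogene within Commd1, had 0.488 FPKM in WT and 0.569 in KD. Slc22a18 had 0.160 FPKM in WT and 0.366 in KD, and Ascl2 had 0.636 FPKM in WT and 0.389 in KD.

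By the allele known to be expressed, 9 of the 12 maternally expressed members were above the filter, with a median log2 difference of 0.05 and 6 of 9 (66.7%) above 0. Of these, 1 was past 1.5-fold higher (Phlda2) and 2 lower (Meg3 and Rian). Of the 22 paternally expressed members 17 were above the filter, with a median of 0.11 and 14 of 17 (82.4%) above 0. Of these 17, 2 were past 1.5-fold higher (Peg10 and Nap1l5) and 0 lower. Over all genes kept, 50.9% were above 0, 2.20% were past 1.5-fold higher and 1.46% were past it lower. Without the Dlk1-Dio3 members, an alternative chosen after seeing the data, the medians were 0.08 over 7 maternally and 0.09 over 16 paternally expressed members. Most of these differences were small, and without values of single embryos their signs could not be tested.

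Where a cluster holds a measured gene of each allele, the ratio of the maternally to the paternally expressed partner was compared within each group. For H19 over Igf2 the log2 ratio of FPKM + 1 was -0.04 in WT and -0.12 in KD. For Igf2r over Airn it was 0.27 and 0.32, and for Zim1 over Peg3 it was -4.40 and -4.43. These 3 ratios hardly differed. For Meg3 over Dlk1 the ratio was 1.60 in WT and -2.78 in KD, so that the partner with the higher level changed, a difference of -4.37. Asb4 over Peg10 went from 2.70 to 2.11, and Cdkn1c over Kcnq1ot1 from 7.19 to 7.99. Sgce, the other paternally expressed member of the Peg10 cluster, was not paired. Its log2 difference of 0.11 was near the 0.12 of Asb4, so the lower Asb4 over Peg10 ratio reflects Peg10 and not the whole cluster. Meg3 and Dlk1 were the only pair of the 6 in which the order of the partners differed between the groups.

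**Figure D5:**
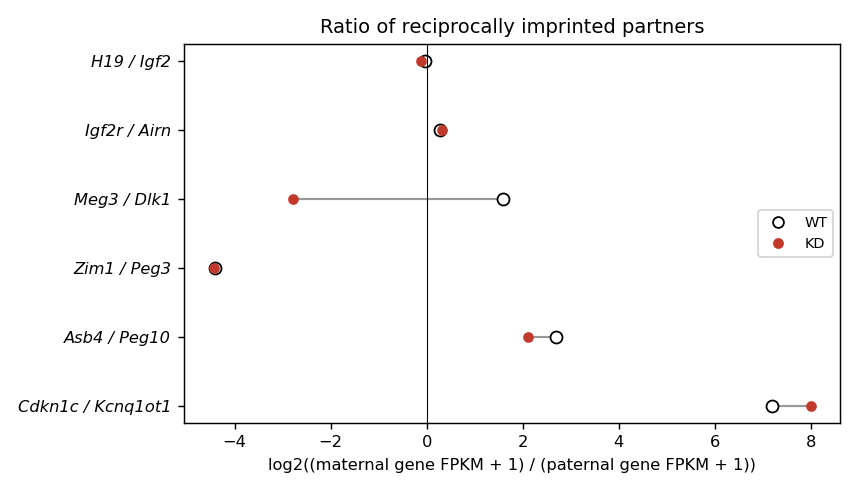
Ratio of the maternally to the paternally expressed gene in 6 clusters, as log2 of FPKM + 1 in WT (open circles) and KD (red circles). The vertical line marks equal levels. Meg3 over Dlk1 crosses it, from 1.60 to -2.78, and the other 5 pairs stay on their side.

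A further list of 32 imprinted genes found in the table, which are less studied or imprinted in few tissues, had 21 genes above the filter and a median log2 difference of 0.02. Commd1 was close to equal in both groups, and the highest gene, Cd81, had 280.5 FPKM in WT and 308 in KD. Of the 21, 2 were past 1.5-fold higher in KD and 1 lower (14.3% in all, against the 3.66% of all genes given above). The list was chosen with earlier results of these data known, so this share is a description and not support for a difference. Dcn, decorin, a matrix proteoglycan imprinted in the placenta, had 2.15 FPKM in WT and 8.28 in KD, a log2 difference of 1.56. Klf14, a maternally expressed transcription factor near Mest, had 0.814 FPKM in WT and 2.27 in KD, a log2 difference of 0.85, and passed the filter only through the KD group. The gene past 1.5-fold lower was Osbpl5, a lipid transfer protein gene at the edge of the Kcnq1ot1 cluster, with 6.27 FPKM in WT and 3.83 in KD, a log2 difference of -0.59.

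Most of the listed factors that act on imprints or on DNA methylation were present in both groups. Dppa3 had 0.0220 FPKM in WT and 0 in KD, and Dnmt3l had 0 in WT and 0.173 FPKM in KD. Both were far below the filter and too low to compare. Of 18 such genes 16 were above the filter and 0 were past 1.5-fold, near the 3.66% of all genes in a list of this size, with a median log2 difference of -0.07 and a range of -0.43 to 0.21. Zfp57, a zinc finger protein that binds methylated imprint control regions, had 14.8 FPKM in WT and 13.04 in KD. Trim28, its corepressor and the highest of the list, had 71.4 FPKM in WT and 82.8 in KD. Dnmt1, the maintenance methyltransferase, had 37.6 FPKM in WT and 35.5 in KD, and Dnmt3b, a de novo methyltransferase with the lowest log2 difference, had 5.41 FPKM in WT and 3.77 in KD. Levels at E9.5 do not show what the levels were in the ES cells or before.

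Genes that act with IGF2 were mostly within 1.5-fold as well. All 13 were above the filter, with a median log2 difference of 0.10 and 1 past 1.5-fold (7.69%, where 3.66% of all genes were). This was Igfbp3, an IGF binding protein, with 9.55 FPKM in WT and 17.4 in KD, a log2 difference of 0.80. The other binding proteins did not pass 1.5-fold, among them Igfbp2 with 48.2 FPKM in WT and 68.3 in KD and Igfbp4, the highest of the list, with 169.6 and 214 FPKM. Igf1r, the receptor through which IGF2 signals, had 4.22 FPKM in WT and 4.58 in KD.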

How the data were processed

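RNA-seq of E9.5 heart ventricles covered 3 WT and 3 KD embryos, grouped by their titles. Per the labels, Smart-Seq2 libraries were made from 10 ng of total RNA with 12 preamplification and 9 enrichment PCR cycles. The submitters' processing notes name TopHat, Bowtie2, Cuffdiff and build mm10, with versions not given in the sources used here. The authors deposited 1 FPKM value per gene and group, scaled by transcript length and mapped fragments. The table's fold changes, test scores, p-values and q-values are the authors' own comparisons and were not used, and 0 columns of single samples were left unused. Depth is unknown.

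The log2 ratio of FPKM with a pseudocount of 1 was computed for genes that reached 1 FPKM in either group (Python 3.11.15, pandas 2.3.3), and the counting step was checked on simulated data. Gene positions are those of GENCODE release M21 (GRCm38). Members above the filter were named with both values, and of other lists those past 1.5-fold and the highest, with further genes named after their values were seen. Members and lists were chosen with earlier results of these data known. Alternatives were other pseudocounts, filters and thresholds, subtraction of the median, and leaving out overlapping genes. Tbx5ua itself is not analysed here.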

Additional observations from a re-analysis of the deposited data

How the results depend on the processing

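No paired analysis was possible because single embryos have no values of their own, and for the same reason fits without each replicate were not run. With no spread between embryos, a value was counted as moved when it differed by more than 0.1 on the log2 scale and a count when it differed by more than 1.5 times. The 5 members past 1.5-fold became 3 when members had to reach 5 FPKM in either group (1 lower), 2 at a threshold of 2-fold (0 higher) and 8 (5 higher) at a lower threshold of 0.32 on the log2 scale. They became 2 (0 lower) without members that overlap any other listed gene, since Meg3 and Rian contain microRNA genes and Nap1l5 overlaps Herc3. With only members overlapping another expressed gene left out, chosen after seeing the data, Meg3, Rian, Peg10 and Phlda2 remained. With a pseudocount of 0.1 and with none, Dlk1 joined the members past 1.5-fold and higher in KD. The genes past 1.5-fold in the whole table numbered 255 higher and 170 lower, 520 and 360 with a pseudocount of 0.1, 533 and 358 with none, 133 and 99 at 5 FPKM, 75 and 67 at 2-fold and 1021 and 743 at the lower threshold. Without microRNA and small nucleolar RNA genes, also chosen later, they numbered 212 and 116, or 2.86%. With pseudocounts of 0.1 and none, the KD minus WT log2 ratio became -7.63 and -11.9 for Meg3 over Dlk1, -0.73 and -0.75 for Asb4 over Peg10, and 0.92 and 0.94 for Cdkn1c over Kcnq1ot1. The medians of all, maternally and paternally expressed members moved by no more than 0.1 under each alternative run, including that without the Dlk1-Dio3 members, chosen after seeing the data. Of 81 values of single members under other scales, 66 stayed within 0.1, 15 moved and 0 changed sign among those past 1.5-fold. The size of the Meg3 and Rian differences depends on the pseudocount, because their KD values are near 0 and the unknown depth sets no limit on them. Members under 5 FPKM are the least certain.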
